A study of Mus musculus with 2 samples.

Results

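The subject here is the parts of the mouse autosomes where, over long distances, no region enriched for macroH2A1.1 was found. They were defined from the list of macroH2A1.1 regions of C2C12 cells, as every interval of 500 kb or more between the end of a listed region and the start of the next one on chromosomes 1 to 19. Of 49028 intervals between neighbouring autosomal regions, 696 were that long. They are called long stretches below, and the other 48332 intervals are used for comparison. The long stretches made up 1.42% of the intervals and 47.2% of the length of all intervals.

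The members were thus chosen by measured values, since each region border depends on the ChIP and input reads. Their number, their length and the reads of the regions next to them come from the same contrast and are given as a description, without a test.

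C2C12 is an established line of mouse myoblasts, which fuse into multinucleated myotubes when the serum is lowered. The ChIP group held 1 library, precipitated with an antibody against macroH2A1.1, and the input group held 1 library of chromatin without antibody. Both were labelled wild type and carried no other treatment in the labels. The source was labelled myoblast, whereas the sample descriptions contain DM, the short form of differentiation medium, and the study describes the macroH2A1.1 profile in myotubes. The stage of the cells is therefore left unnamed here. With 1 library a group, no value has an error between replicates. The 49047 autosomal regions held 4755931 ChIP reads and 1545157 input reads, and enrichment means ChIP over input reads after division by the library factor of 1.45.

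MacroH2A1 is a variant of histone H2A that carries a large macrodomain outside the nucleosome. It is made as the splice isoforms macroH2A1.1 and macroH2A1.2, and the macrodomain of macroH2A1.1 can bind ADP-ribose. MacroH2A proteins are known for broad and low enrichment over large parts of chromosomes, for their accumulation on the inactive X chromosome and for their frequent presence in repressed chromatin. A broad-domain caller reports where such enrichment passes its threshold. An interval without a region is the lack of a call, and not a measurement that macroH2A1.1 was absent.

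Long stretches covered a large part of the autosomes. Together they extended over 1025 Mb, or 42.9% of the 2391 Mb between the first and the last region of each autosome. The listed regions themselves covered 9.25% of this span, and the shorter intervals made up the remaining 47.9%. The median long stretch was 947 kb, with quartiles at 640.1 and 1649 kb. The median of the other intervals was 5400 bp, with quartiles at 1600 and 16400 bp.

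The distribution of interval lengths had no break at 500 kb. The 3 shortest members were 502 kb on chromosome 8, 503 kb on chromosome 18 and 503 kb on chromosome 11. The 3 longest intervals that just missed the limit were 499 kb on chromosome 17, 498 kb on chromosome 5 and 498 kb on chromosome 2. The limit is thus a cut through a continuous tail.

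**Figure D1:**
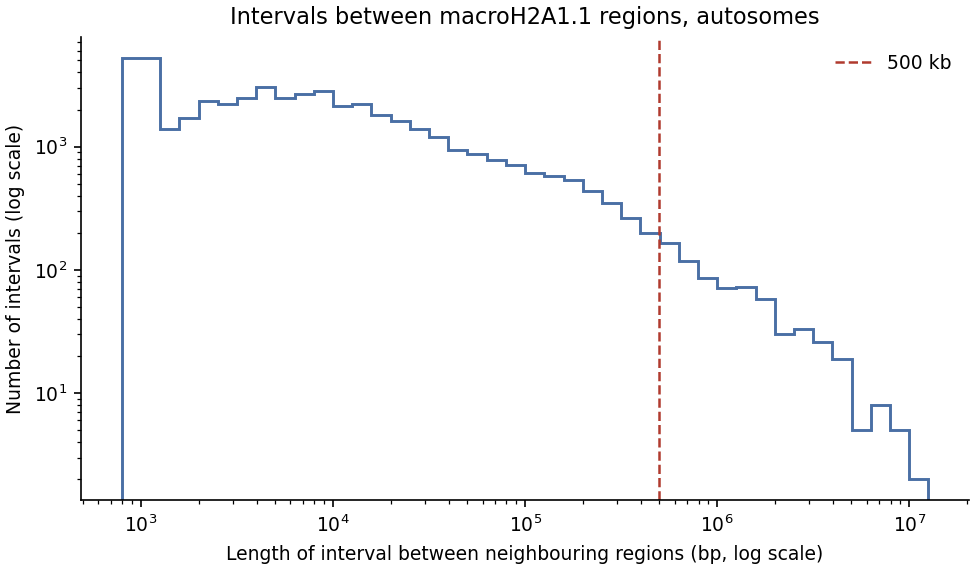
Number of intervals between neighbouring macroH2A1.1 regions on the autosomes (y axis, log scale) against their length in bp (x axis, log scale), with 500 kb as a dashed line. The counts fall smoothly through the line, beyond which the 696 long stretches lie.

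Most long stretches were short, but the long ones carried much of the length. Of the 696, 367 were under 1 Mb and added up to 251 Mb. Another 201 measured between 1 and 2 Mb and came to 286 Mb. Between 2 and 5 Mb there were 108, with 338 Mb. Only 20 reached 5 Mb or more, on 13 chromosomes, and these held 151 Mb or 14.7% of the length. The 141 longest were enough to reach 50% of the total.

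The longest stretch was on chromosome 7, at chr7:39036001-50798200 in mm9, and measured 11.8 Mb. On its left lay a region of 800 bp with 30 ChIP reads and 2 input reads. The ratio in that region was 10.3-fold, with a wide 95% exact interval of 2.63 to 89.3. On its right lay a region of 7000 bp with 144 ChIP and 28 input reads, enriched 3.55-fold (95% exact interval 2.35 to 5.52). This was the broader and more deeply covered of the pair.

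The next was of almost the same length, 11.7 Mb, at chr14:87968401-99695600. It ran from a region with 69 ChIP and 28 input reads, enriched 1.70-fold (1.08 to 2.74), to a region with 52 ChIP and 12 input reads, enriched 2.99-fold (1.57 to 6.15). The intervals of these borders overlapped.

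Chromosome 7 also had the third longest, chr7:6865801-16673800, of 9.81 Mb. Its left border was a region of 1400 bp enriched 2.45-fold (1.23 to 5.29) from 39 ChIP and 11 input reads. Its right border was a region of 7600 bp enriched 2.91-fold (1.90 to 4.61) from 114 ChIP and 27 input reads.

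The fourth, chr15:12726201-21688600, extended over 8.96 Mb on the chromosome with the fewest long stretches. Both of its borders were weak. The left one was enriched 1.64-fold (0.969 to 2.88) from 50 ChIP and 21 input reads, so its interval included 1. The right one was enriched 1.74-fold (1.01 to 3.14) from 48 ChIP and 19 input reads.

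The fifth, chr5:54386001-63175200, was 8.79 Mb long. It was bordered by a region enriched 2.91-fold (1.72 to 5.17) from 76 ChIP and 18 input reads. On the other side lay a region of 1400 bp with 42 ChIP reads and 3 input reads, a ratio of 9.66-fold with an exact interval of 3.09 to 48.7. Chromosome 12 carried the next in length, chr12:57373601-66004000, of 8.63 Mb. All exact intervals cover counting error only, because reads copied by PCR are not independent molecules.

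The 5 longest stretches therefore had borders of every strength, and the same held for the whole set. The 696 stretches have 1392 borders, formed by 1308 regions because 84 regions served as a border on both sides. Bordering regions were 2.67% of the autosomal regions. Taken as one, they had 85148 ChIP reads and 27096 input reads, which gives an enrichment of 2.17-fold (95% exact interval 2.14 to 2.20). All other autosomal regions taken as one gave 2.12-fold (2.12 to 2.13). The median enrichment was 2.22-fold for bordering and 2.21-fold for other regions, with quartiles at 1.73 and 3.01 and at 1.75 and 2.86. A region at the edge of a long stretch was thus about as enriched as any other, on the median.

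Bordering regions were narrower and held fewer reads. Their median width was 3000 bp, against 3600 bp for the other regions. Their median of ChIP reads was 54, against 69, and their median of input reads was 18, against 23. Per kb of region the gap was smaller, with medians of 19.4 against 20.5 ChIP reads and 5.99 against 6.43 input reads. Very wide regions were rare at the borders. Only 1 of the 1308 was wider than 20 kb (0.0765%), against 405 of the 47739 others (0.848%). Regions of 1 kb or less were 4.05% of the bordering and 1.21% of the other regions. The left and the right borders had the same median width of 3000 bp, and their pooled enrichments were 2.15-fold (2.11 to 2.19) and 2.19-fold (2.15 to 2.23).

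The length of a stretch made little difference to its borders. Across the classes of 0.5 to 1, 1 to 2, 2 to 5 and over 5 Mb, the median enrichment of the bordering regions was 2.24-fold, 2.17-fold, 2.19-fold and 2.31-fold. Their median widths were 3000, 2800, 3000 and 2900 bp. Over all interval lengths the reads per region were lower beside longer intervals. Regions flanking an interval under 2 kb had a median of 78 ChIP reads, those flanking 20 to 100 kb had 61, those flanking 1 to 2 Mb had 52 and those flanking over 2 Mb had 55. Over the same classes the median enrichment was 2.26-fold, 2.15-fold, 2.17-fold and 2.19-fold.

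The strength of the borders was also described with a stricter filter, because the list treats the input count as free of error. The regions are listed because their ChIP reads exceeded their input reads, so passing this filter on the same counts is no further evidence of enrichment. A one-sided exact binomial comparison of ChIP against input reads left 1134 of the 1308 bordering regions at a Benjamini-Hochberg FDR of 0.05 or less (86.7%), where it left 90.1% of all autosomal regions. Among regions with a long stretch on both sides it was 67 of 84 (79.8%). At 2-fold or more were 792 bordering regions (60.6%), close to the 61.2% of all autosomal regions. Of the 696 stretches, 522 (75%) passed the binomial filter at both borders, and 174 had at least 1 border without it. Both borders were enriched 2-fold or more in 262 stretches (37.6%), and neither was in 117 (16.8%).

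Most stretches kept their borders when only the weakest regions were left out. With the deposited FDR limited to 0.01, 2060 regions were removed, of which 72 were borders, and 619 stretches (88.9%) kept the same borders. With the binomial filter, 522 kept them. The number of long stretches changed little, to 704 and 717. Removing a border adds no stretch, whereas removing another region can join shorter intervals into a new one. With regions of 2-fold or more it was 789, with 1168 Mb, or 48.9% of the span. Only 262 stretches then kept the same borders.

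Chromosome 7 had the largest share of long stretches and chromosome 15 the smallest. On chromosome 7, 57 long stretches with a total of 101 Mb took up 67.3% of the span, and this chromosome held 9.81% of the length of all long stretches. On chromosome 15, 14 stretches with 22.0 Mb took up 22.0%. The median of the 19 autosomes was 42.1%. Chromosomes 12, 14, 16 and 6 followed chromosome 7, with 54.6, 53.3, 52.7 and 48.6%. The other low values were 26.2% on chromosome 11 and 29.3% on chromosome 19. Of the 22.0 Mb on chromosome 15, 8.96 Mb belonged to the single stretch named above.

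The number and the length of stretches did not rank the chromosomes in the same way. Per Mb of span, chromosome 7 had 0.382 stretches, chromosome 13 had 0.352 and chromosome 12 had 0.280. Chromosome 12 reached its high share with longer stretches, which had a median of 1383 kb, the highest of the autosomes. On chromosome 13 the median was 805 kb, on chromosome 7 it was 1005 kb, and on chromosome 11 it was 714 kb. Chromosome 19, the shortest autosome, had no stretch longer than 1.59 Mb.

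Input depth differed between these chromosomes and is given beside the shares. Within regions, chromosome 7 had 5.06 input reads per kb, the lowest of the autosomes, and chromosome 15 had 8.37. The median was 6.66, and chromosome 8 was highest at 9.40, with a share in long stretches of 42.6%. When the counts of every chromosome were scaled down to the input density of chromosome 7 and held to the largest p-value in the list, 737 regions were lost. The share was then 67.3% on chromosome 7, whose own counts were not scaled, and 23.0% on chromosome 15. These remained the highest and the lowest of the autosomes. The scaling could only remove listed regions and not add any, so whether depth set this order was not tested. Regions below the threshold are not in the list, so depth outside the listed regions was not tested.

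The order depended on the strength of the regions that were counted. With regions of 2-fold or more, chromosome 7 had 71.4% and chromosome 15 had 31.4%, and chromosome 11 was the lowest at 29.7%. With regions of 4-fold or more, a limit chosen after the data were seen, chromosome 15 was the highest of all at 89.5%. Chromosome 7 then stood at 84.6%, near the median of 83.3%. Only 4078 of the autosomal regions (8.31%) reached this limit, and the share rose on every autosome. The low rank of chromosome 15 was thus not kept among regions of 4-fold or more.

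**Figure D2:**
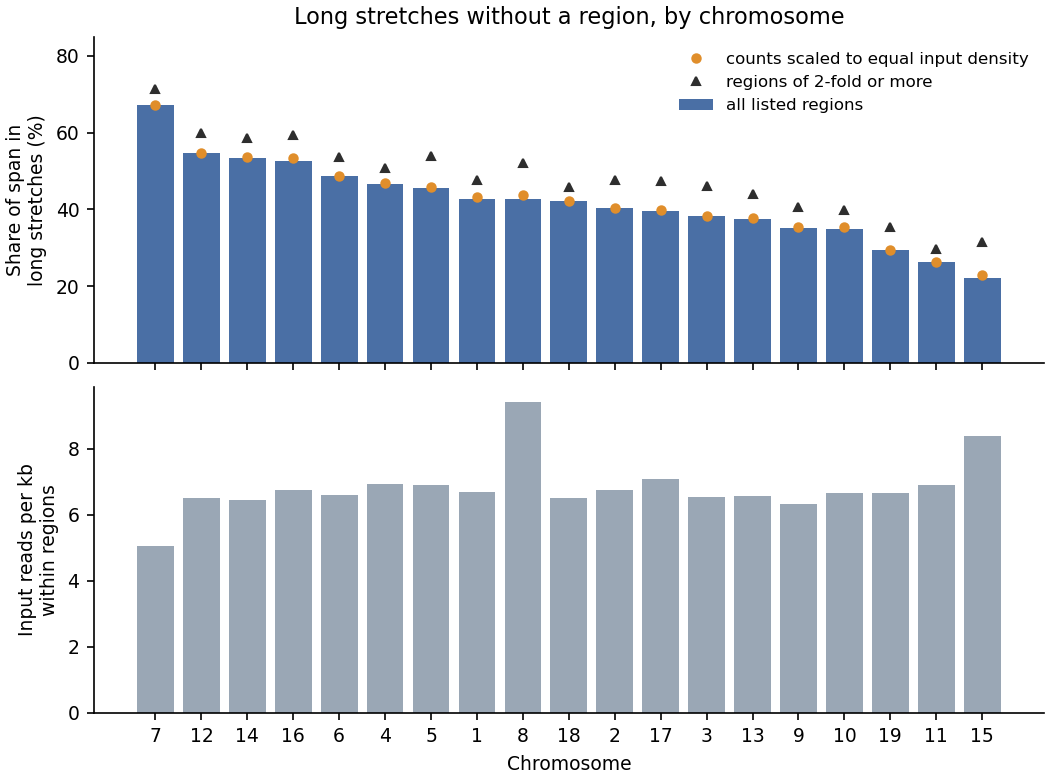
Upper panel, the share of each autosome's span in long stretches (%), as bars for all listed regions, circles for counts scaled to equal input density and triangles for regions of 2-fold or more. Lower panel, input reads per kb within regions. Chromosomes are ordered by share, from 67.3% on chromosome 7 to 22.0% on chromosome 15, and the circles lie close to the bars.

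Along the chromosomes, long stretches took a larger share near the start of the span than near its end. Mouse autosomes have their centromere close to the first base, so the start of the span is the centromere-near side. When each span was divided into 10 equal parts, the shares over all autosomes were 50.8 and 52.9% in the first and second part, 48.4 and 44.1% in the middle parts, and 35.2 and 32.1% in the last. The spread between chromosomes was wide in every part. In the first part it ran from 8.27 to 89.4%, and in the last from 0 to 79.3%, so the ranges overlapped.

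**Figure D3:**
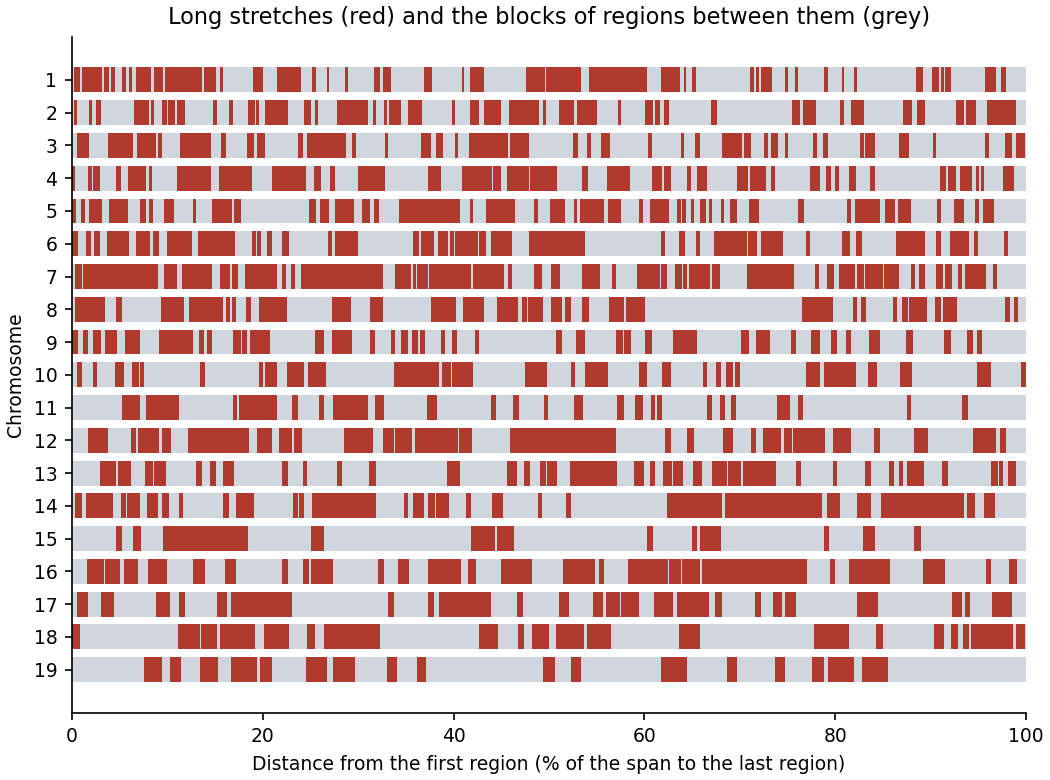
Long stretches (red) and the blocks of regions between them (grey) on the 19 autosomes (y axis), placed by their distance from the first region as a percentage of the span to the last region (x axis). Red fills most of chromosome 7 (67.3%) and little of chromosome 15 (22.0%), and on chromosome 15 a single stretch of 8.96 Mb stands out.

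The long stretches divided the autosomes into 715 blocks that held all regions. A block had a median of 27 regions, with quartiles at 5 and 82, and a median length of 970 kb. At the limit of 500 kb, a median block was thus about as long as a median long stretch, whose length depends on that limit. Blocks of 100 regions or more were 156 (21.8%), and these held 35329 regions, or 72.0% of all. The block with the most regions, 1023, covered 14.0 Mb on chromosome 15. The longest was the segment chr8:80138201-101126400 of 21 Mb with 785 regions.

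At the other end, 89 blocks (12.4%) were a single region and 93 (13%) had 2 to 5 regions. All blocks of 5 regions or fewer together held 380 regions, 0.775% of the autosomal list. Regions that formed a block alone had a median width of 2600 bp, 48 ChIP reads and an enrichment of 2.19-fold. In blocks of 100 regions or more the medians were 3600 bp, 71 reads and again 2.19-fold.

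Counted in steps outward from a long stretch, the intervals became shorter, although the density of regions by distance did not show such a gradient. In steps, the first interval next to a long stretch had a median of 33.6 kb (quartiles 7 and 172 kb), and the second had 21 kb. The next intervals outward had 14.4, 13.2 and 11.2 kb. All were longer than the median of 5400 bp of the intervals under 500 kb. That median leaves out long stretches, which the steps include, so the sets are not comparable. The interval next to a long stretch was itself a long stretch in 168 of 1387 cases (12.1%), where 1.42% of all intervals were. Neighbouring long stretches are counted from both sides here, and no test was made.

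Reads per region rose over the same steps. Bordering regions had a median of 54 ChIP and 18 input reads, the next regions outward 58 and 19, and the fifth 61 and 20. The enrichment was 2.22-fold at the border, 2.18-fold in the second position and 2.21-fold in the fifth, so ChIP and input reads moved together.

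**Figure D4:**
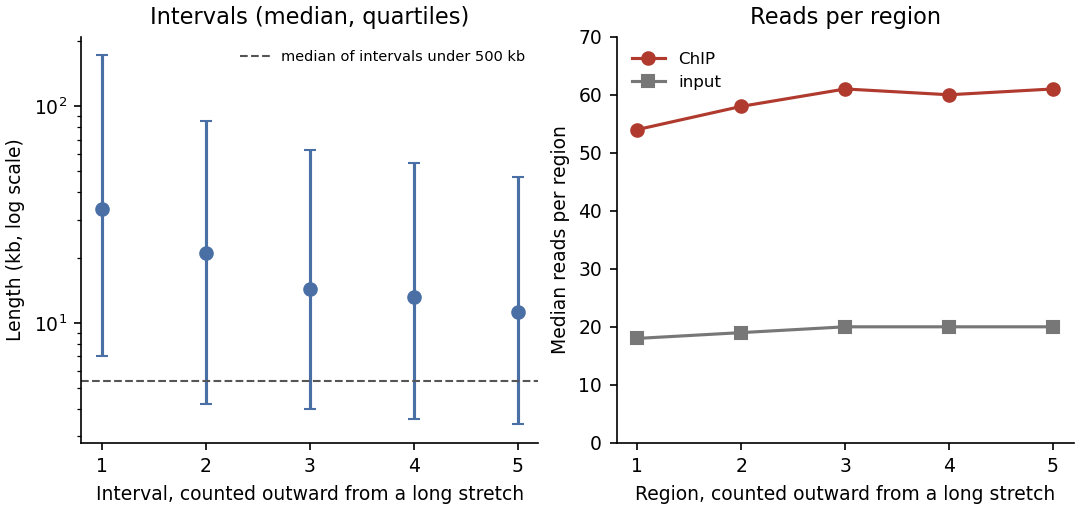
Left, length of the first to the fifth interval outward from a long stretch (kb, log scale), as medians with bars to the quartiles, and the median of all intervals under 500 kb as a dashed line. The dashed line leaves out long stretches, which the steps include. Right, median ChIP and input reads of the first to the fifth region outward. The intervals shorten from 33.6 to 11.2 kb while ChIP reads rise from 54 to 61.

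By distance, the density was flat from 100 to 500 kb outward, over 1378 borders. The successive parts of 100 kb had 21.4, 21.4, 22.1 and 21.3 regions per Mb. These parts include neighbouring long stretches, since 168 borders had only the bordering region within 500 kb. The 35.9 regions per Mb of the whole span outside long stretches leave all of them out. The densities are thus not comparable, and no depletion beside long stretches is read from them. Regions covered 9.0% of the sequence between 100 and 200 kb and 9.29% between 400 and 500 kb. This was close to the 9.25% of the whole span with long stretches included. Outside long stretches the coverage was 16.2%, again with all of them left out. The first 100 kb had 34.4 regions per Mb and a coverage of 13%, but this part contains the bordering region by construction. Within 500 kb of a border there was a median of 9 regions (quartiles 4 and 17).

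The 84 regions with a long stretch on both sides stood the most alone. They were found on 18 autosomes, with 11 on chromosome 8 and none on chromosome 19. Their closer neighbour was at a median distance of 741 kb, and 22 had no other region within 1 Mb. Taken as one they were enriched 2.20-fold (95% exact interval 2.07 to 2.34), an interval that includes the 2.17-fold of all bordering regions. Their FDR in the deposited list was above 0.01 in 8 cases (9.52%), against 4.16% of the regions that border no long stretch.

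Among these 84 regions, the 3 with the most ChIP reads are given with their exact intervals. They were listed for ChIP above input and then picked by ChIP reads, so intervals above 1 are no further evidence of enrichment. The region chr14:115414801-115421400 was enriched 2.68-fold (1.93 to 3.8) from 179 ChIP and 46 input reads, at 8.51 and 1.53 Mb from its neighbours. The region chr13:14587201-14592200 had 122 and 26 reads and an enrichment of 3.24-fold (2.11 to 5.15). The third, chr8:17523001-17528600, had 86 and 32 reads and 1.85-fold (1.22 to 2.88), below the median of 2.19-fold of the 84 regions.

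The highest enrichments with more than 3 input reads came from low input counts. They were 8.28-fold (3.36 to 26.4) from 60 ChIP and 5 input reads in the 400 bp of chr2:16604601-16605000, and 6.09-fold (2.62 to 17.3) from 53 and 6 reads in the 2800 bp of chr12:66004001-66006800. The latter separated a stretch of 8.63 Mb from one of 4.45 Mb. The third, chr14:29381601-29382200, had 5.17-fold (1.82 to 20.2) from 30 ChIP and 4 input reads. Their intervals overlapped each other. The weakest region with a long stretch on both sides was chr7:24552401-24554400. It was enriched 1.29-fold (0.76 to 2.24) from 43 ChIP and 23 input reads, with a deposited FDR of 0.0489 and a binomial FDR of 0.195. Without this region, a stretch of 4.09 Mb and one of 0.589 Mb would be continuous.

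Long stretches separated from each other by 1 region formed runs. Of all runs, 539 were a single stretch, 63 had 2 stretches and 9 had 3. One run had 4, at chr4:19857601-25154000, where stretches of 621, 1157, 2913 and 599 kb followed each other over 5.30 Mb. The 3 regions between them were enriched 1.97-fold (1.18 to 3.41), 3.66-fold (1.84 to 8.06) and 3.62-fold (1.68 to 8.93), and each had a binomial FDR under 0.05.

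To see how these lengths compare with the gene content of the mouse genome, chromosome-wide values were taken from GRCm38, a later build than mm9. No stretch was placed on that annotation. In GRCm38 the autosomes have 601 intervals of 500 kb or more without a protein-coding gene, the so-called gene deserts, with a median of 881 kb and a total of 699 Mb. Both sets were cut at 500 kb, and their medians depend on this shared limit. The long stretches were of similar number and median length, but their total of 1025 Mb was larger by 326 Mb. Gene deserts of this size could thus hold at most 68.2% of the length, if the builds are taken as equal in this respect. The longest gene desert was 4.67 Mb, and 26 long stretches with 179.9 Mb were longer than that. The total of long stretches was above that of gene deserts on 17 of 19 autosomes, the exceptions being chromosomes 3 and 15.

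The largest difference was on chromosome 7, where long stretches amounted to 3.64 times the gene desert length, or 72.9 Mb more. Chromosome 7 has 13.9 protein-coding genes per Mb in GRCm38, the most of the autosomes. Among these are 244 genes of olfactory receptors and 154 genes of vomeronasal receptors, the odour and pheromone receptors of sensory neurons, which are kept silent in most other tissues. The autosomes together have 1128 and 329. Chromosome 2 has more olfactory receptor genes, 294, but no vomeronasal ones. Of both kinds together it has 1.61 per Mb, against 2.74 on chromosome 7. Its share in long stretches was 40.3%, below the autosome median of 42.1%. Chromosome 9 has 132 olfactory receptor genes and a share of 35.2%. Chromosome 11 has a gene density of 13.4 per Mb, close to that of chromosome 7, with 82 olfactory receptor genes and a share of 26.2%. On chromosome 15 long stretches amounted to 0.671 times the gene desert length.

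Across the 19 autosomes, which share both libraries, the share in long stretches went weakly with gene content. With the share in gene deserts, Pearson's r was 0.198 and Spearman's rho 0.319, and r was 0.491 without chromosome 7. With protein-coding genes per Mb, r was -0.0882 and rho -0.270, and r was -0.548 without chromosome 7. With GC content, r was -0.188 and rho -0.235, and r was -0.469 without chromosome 7. Chromosome 7 was thus apart from the other autosomes in each of these, with many genes and a large share in long stretches. With olfactory and vomeronasal receptor genes per Mb, r was 0.273 and rho -0.212, and r was -0.288 without chromosome 7, so its sign rested on that chromosome. With input reads per kb, r was -0.466 and rho -0.311, and r was -0.256 without chromosome 7. Without chromosomes 8 and 15, the 2 farthest from the median in input reads per kb, r was -0.593 and rho -0.255. With the share of unresolved bases these were 6 relations, given as descriptions without a p-value.

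**Figure D5:**
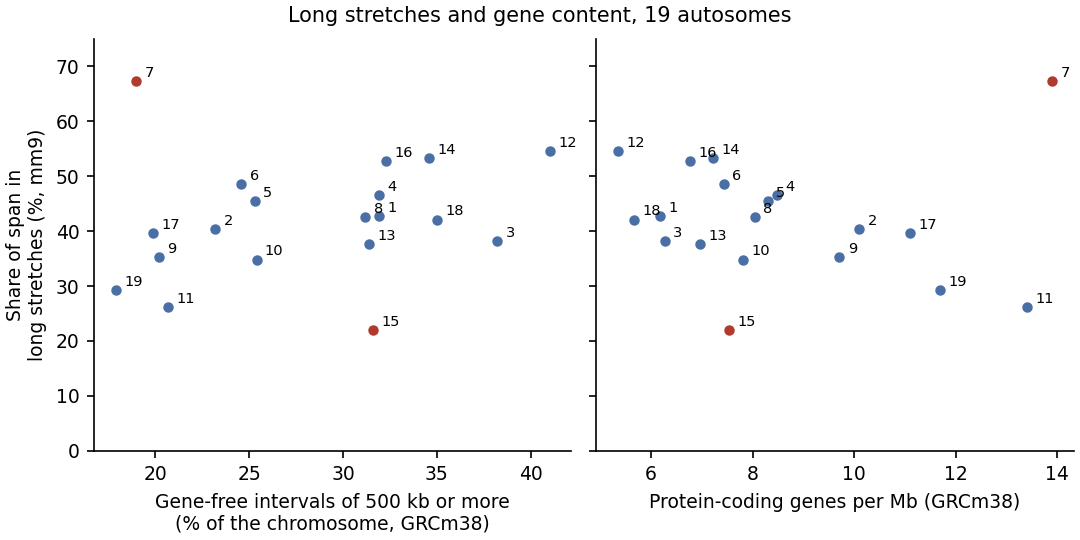
Share of the span in long stretches (y axis, %, mm9) against the share of the chromosome in gene-free intervals of 500 kb or more (left) and protein-coding genes per Mb (right), both from GRCm38. Each point is an autosome, with chromosomes 7 and 15 in red. Chromosome 7 lies at 67.3% with 13.9 genes per Mb, apart from chromosome 11 with 13.4 genes per Mb and 26.2%.

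Bases that are unresolved in the assembly were a small quantity beside the long stretches. Away from the chromosome ends, GRCm38 has 7.37 Mb of such bases on the autosomes, which is 0.719% of the length of the long stretches, and its longest run measured 395 kb. The corresponding values of mm9 and the repeat content were not analysed here. The share in long stretches and the share of unresolved bases gave an r of 0.0992 and a rho of 0.0456.

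Finally, the loci measured by ChIP-qPCR in the study were placed against the long stretches by their mm9 positions. None of the 5 amplicons was in one. The amplicon at Fn1, which encodes the matrix protein fibronectin, was 2.76 Mb from the closest long stretch, in a block of 270 regions over 6.69 Mb. The amplicon at Itga11, which encodes an integrin subunit, was 2.84 Mb away, in a block of 406 regions over 9.48 Mb. For Col1a1, the gene of a collagen chain, the 3 amplicons were 733 to 785 kb away, in a block of 441 regions over 12.8 Mb. The closest stretch to the latter was chr11:93359001-94051600, of 693 kb. The study selected these genes from expression changes after isoform knockdown. It then measured regions of them by ChIP-qPCR to check the same profile, so their position in blocks with many regions is no independent observation.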

How the data were processed

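ChIP-seq was made by the authors from 1 macroH2A1.1 ChIP library and 1 input library of C2C12 cells. Per the submitters' processing notes and the study's methods, reads were aligned to mm9 with Bowtie2 2.0.6 and enriched regions were called with SICER. The deposited list is named after epic, and its settings differ from those in the methods, which state wider windows and a wider gap: starts and widths were multiples of 200 bp, and the shortest interval was 800 bp. Region borders, and with them the stretches, depend on these settings. The deposited table holds counts of ChIP and input reads per region as they were, without scaling. The deposited log2 fold change, the score derived from it, and the p-value and FDR are those of the authors' caller. Library totals are not given, so depth is known only within regions.

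Regions were sorted, and intervals between neighbours were measured with the listed end as an included base. Coordinates are 1-based in mm9. Stretches named in the text are the 5 longest, the longest on the 3 chromosomes with the largest share, the 3 on each side of the limit and the longest run. Named regions are the borders of the 5 longest, and, among regions with a long stretch on both sides, the 3 with the most ChIP reads, the 3 with the highest enrichment above 3 input reads and the one with the largest FDR. Members and lists were chosen with earlier results of these data known. Intervals of enrichment are 95% exact (Clopper-Pearson) intervals for counting error. The exact binomial test, used as a filter on regions, had the library factor of 1.45 as its null ratio and was adjusted over all 50887 regions. Gene content (GENCODE) and base composition (RefSeq) are chromosome-wide values of GRCm38, and gene names were not assigned to stretches, since no coordinate was moved between builds. The computation was tested on simulated data. Python 3.11.15, numpy 2.4.6, pandas 2.3.3, scipy 1.17.1 and matplotlib 3.10.9 were used.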

Additional observations from a re-analysis of the deposited data

How the results depend on the processing

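Of 101 values recomputed under alternatives, 80 stayed within 1.5 times the value of the report or, for the pooled enrichment, within its exact interval; 18 moved and 3 changed sign. The number of long stretches was 1513 at a limit of 250 kb, 329 at 1 Mb and 1077 with regions of 4-fold or more, where their share of the span was 81.9%. The median length was 465 kb and 1707 kb at the limits of 250 kb and 1 Mb, and the regions with a long stretch on both sides were 230 and 22. The pooled enrichment of bordering regions was 2.22-fold at an FDR of 0.01, 2.73-fold with regions of 2-fold or more and 2.29-fold with the binomial filter, because these filters remove weak regions. Without the 2 autosomes farthest from the median of the x axis, r was -0.0615 for GC content, -0.423 for coding genes per Mb, 0.420 for gene deserts, -0.356 for receptor genes and -0.000708 for unresolved bases. For input reads per kb it was -0.593. Without chromosome 7, r was -0.469, -0.548, 0.491 and -0.288 for the first 4 of these and -0.256 for input reads per kb. The 4-fold limit and the correlations without chromosome 7, at scaled depth and with 2-fold regions were chosen after the data were seen. Stepping over lone regions gave 739 stretches with 1141 Mb. No paired analysis was possible because there is 1 library of each kind. The list has no reads outside regions, so the depth in a long stretch is unknown, and a further ChIP library would be needed to see whether the same stretches lack regions again.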

Other observations

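Chromosome X was outside the definition used above and is given for its values only. Its 1840 regions left 62 long stretches with 80.2 Mb, or 49.7% of its span, above the autosome median of 42.1% and below chromosomes 7, 12, 14 and 16. The median length was 724 kb and the longest measured 10.2 Mb, close to the longest on the autosomes. Input reads within its regions were 6.0 per kb, against a median of 6.66 on the autosomes, and the part of this difference in the share was not tested.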
